A study of Danio rerio with 6 samples.

Results

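The genes described here encode ligands of the Egf receptor. They are hbegfa and hbegfb, the zebrafish paralogs of heparin-binding Egf-like growth factor, together with egf, tgfa and btc, which encode Egf, transforming growth factor alpha and betacellulin. They are grouped here by gene name, and the rule uses no measured value, although results of these data were known when it was set. All 5 were found among the 14781 genes of the count files, and 4 had enough reads to be tested. Further ligand genes that were looked for, namely areg, ereg and epgn, were not analysed here.

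Ligands of this family are made as precursors anchored in the cell membrane, and proteases at the cell surface release the growth factor domain in a step called ectodomain shedding. The released or anchored ligand binds a receptor of the Egf receptor (ErbB) family, receptors pair with each other, and the signal passes through Ras, Raf, Mek and Erk kinases to transcription factors. Hb-egf and betacellulin bind both Egfr and Erbb4 in mammals, whereas Egf and transforming growth factor alpha bind Egfr. In the fish retina, Hb-egf is known as an injury signal of Müller glia, and in the spinal cord the comparable cells are ependymo-radial glia (ERGs), which line the central canal.

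Bulk RNA-seq was run on whole spinal cord of adult wild-type Ekkwill zebrafish. The 3 sham libraries came from fish that were operated on without cutting the cord, and in the 3 injured libraries the cord had been fully cut 1 week before (1 week post injury, wpi). Both groups were clutchmates, none carried a mutation or transgene as far as the sources used here state, and the tissue reached 2 mm to each side of the lesion or of the matching position. The sources used here do not say how many fish each library held, and every p-value measures the spread between these libraries, which may be in part technical. Levels are in CPM (counts per 1000000 reads counted in genes, with scaled library sizes) and are not divided by gene length, so they order libraries and not genes. The log2 fold change of injured over sham cords is written log2FC, with its standard error (SE).

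Reads counted in genes ranged from 19310220 to 30147448 per library. The cord label fitted its markers, since the summed level of 10 genes listed for ERGs lay between 14160 and 21141 CPM and that of 16 genes of mature neurons between 14737 and 34398 CPM, with no listed gene of either cell type at 0 in every library. Genes listed for skeletal muscle (19 genes) were present too. They summed to 47881 CPM in injured replicate 1, 23548 CPM in sham replicate 1 and 7338 to 18825 CPM in the other libraries. Sham replicate 1 stood apart from sham replicates 2 and 3. Its counts differed from theirs by a chi-square per degree of freedom of 130 and 167, against 17.2 between replicates 2 and 3, and genes listed for oocytes summed to 677 CPM in it and to at most 42.9 CPM in any other library. The ligand values are therefore given with and without sham replicate 1. Injured replicate 1 also stood apart within its group, to a lesser degree. Its chi-square per degree of freedom was 79.2 and 54.1 against injured replicates 2 and 3, which differed from each other by 11.8. In edgeR's quasi-likelihood test of all 6 libraries, with Benjamini-Hochberg adjustment over 12804 genes and a threshold of 0.05, 5.81% of genes tested were called higher and 4.83% lower at 1 wpi. These were 744 and 618 genes (54.6% of calls higher), which became 456 and 1006 (31.2% higher) when libraries were scaled by total count alone, an alternative added after the data had been seen.

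RNA of hbegfa was higher in each injured library than in each sham library, as was that of 22.9% of all genes tested. RNA of hbegfb differed between the group means by about the same fold, but whether its groups overlapped depended on how libraries were scaled, and for both paralogs the spread within the sham group was wide. Their edgeR calls rested on 1 library: neither gene passed the test with all 6 libraries, and both passed without sham replicate 1. RNA of egf lay at nearly the same level in every library, tgfa RNA was low with overlapping groups, and no read was counted for btc. In bulk tissue, fewer cells of a type cannot be told apart from less RNA per cell, nor more cells from more RNA per cell.

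**Figure D1:**
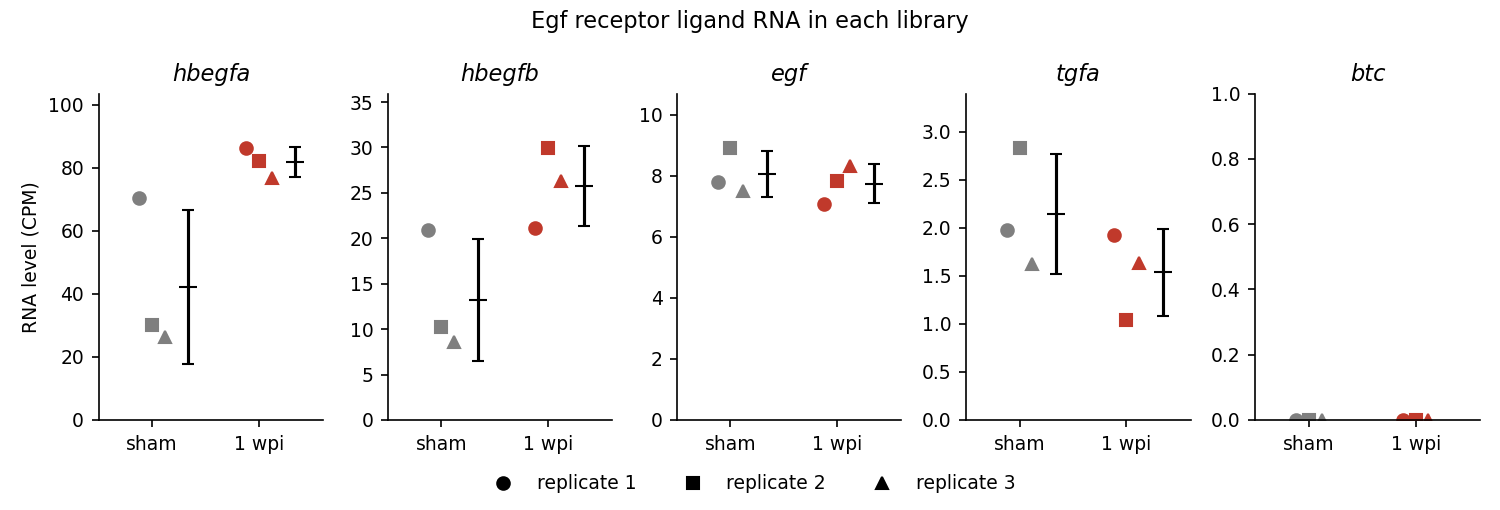
Levels of the 5 ligand genes in each library. The vertical axes give CPM from 0 on a separate linear scale for each gene, marker shapes show the replicate number, and the bars give the mean and SD of 3 libraries; the sham value of hbegfa and of hbegfb in replicate 1 (70.4 and 20.9 CPM) lies close to the injured values.

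For hbegfa, 1424, 646 and 632 reads were counted in sham libraries 1, 2 and 3, and 2463, 2213 and 1687 in the injured ones. Scaled, these were 70.4, 30.005 and 26.3 CPM in sham cords and 86.3, 82.2 and 76.8 CPM in injured cords. The groups did not overlap, but sham replicate 1 held more than the other sham libraries by a wide margin and lay 0.86 of the way, on the log2 scale, from their mean to the injured mean. The highest sham library exceeded the lowest 2.67-fold, and the highest injured library exceeded the lowest 1.12-fold. Counting error was small beside this, at 2.01% to 3.98% of each count. Sham cords averaged 42.2 ± 24.4 CPM (SD, n = 3), and cords at 1 wpi averaged 81.8 ± 4.79 CPM (SD, n = 3). That is a 1.94-fold difference with a 95% interval from 1.03 to 3.67, or a log2FC of 0.96 (SE 0.378, edgeR adjusted p = 0.121). The log2FC was 1.54 with sham replicate 1 left out (SE 0.0843, edgeR adjusted p = 0.000104).

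For hbegfb, the counts were 423, 221 and 205 reads in the sham libraries and 603, 806 and 577 reads in the injured libraries. Scaled, these were 20.9, 10.3 and 8.53 CPM in sham cords and 21.1, 29.95 and 26.3 CPM in injured cords. On this scale the groups did not overlap, but sham replicate 1 and injured replicate 1 lay side by side, and they changed order with the scaling. Scaled by total count alone they held 21.9 and 20.005 CPM, and by the upper quartile 21.3 and 20.99 CPM, so that the groups overlapped. Injured replicate 1 was the lowest injured library for hbegfb and the highest for hbegfa. Sham cords averaged 13.2 ± 6.70 CPM (SD, n = 3), and cords at 1 wpi averaged 25.8 ± 4.43 CPM (SD, n = 3). The fold difference was 1.95 with a 95% interval from 1.07 to 3.55, a log2FC of 0.96 (SE 0.356, edgeR adjusted p = 0.106). With sham replicate 1 left out it was 1.46 (SE 0.174, edgeR adjusted p = 0.00100).

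The exact permutation test (2-sided) gave p = 0.1 for each paralog, the smallest value that 3 libraries against 3 allow, and p = 0.2 for hbegfb scaled by total count or upper quartile. Groups without overlap were found for 22.9% of genes in the upward direction and for 21.8% in the downward one, and 4.83% had a log2FC at least as large as that of hbegfa. With no adjustment, 38.2% of all genes had an edgeR p under 0.05 in either direction. Both paralogs were among them, hbegfa with an unadjusted edgeR p of 0.0437 and hbegfb with one of 0.0342. DESeq2 on the same 6 libraries called both, at adjusted p-values of 0.0408 and 0.0373, and called 14.8% of genes higher (29.6% in either direction). In the fit without sham replicate 1, edgeR called 29.0% of genes higher, so the paralogs' call without that library is one that many genes share. Leaving out any other single library gave a log2FC from 0.71 to 1.00 for hbegfa and from 0.73 to 1.09 for hbegfb, none past the threshold (adjusted p from 0.189 to 0.284, edgeR). In these fits edgeR called 0 of all genes, higher or lower, so a miss there is not particular to the paralogs. DESeq2 lost both calls in each of these fits too. Its adjusted p ran from 0.129 to 0.196 for hbegfa and from 0.0794 to 0.194 for hbegfb. Of all genes it called 859 to 1068 higher and 786 to 922 lower in these fits.

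Egf, the ligand that gave the receptor its name, showed another pattern. Counts of egf were 158, 192 and 180 reads in sham cords and 202, 211 and 183 reads in injured cords. These made 7.81, 8.92 and 7.49 CPM and 7.08, 7.84 and 8.33 CPM, and the groups overlapped throughout. The coefficient of variation between libraries was 9.28% in sham and 8.12% in injured cords, close to the counting error of 6.88% to 7.96% of each count. The mean level was 8.07 ± 0.749 CPM (SD, n = 3) in sham and 7.75 ± 0.629 CPM (SD, n = 3) in injured cords, and sham replicate 1 lay between the other sham libraries. The fold difference was 0.960 with a 95% interval from 0.767 to 1.203 (log2FC -0.06, edgeR adjusted p = 0.762, exact permutation p = 0.7). The sign of this small value turned when sham replicate 2 or injured replicate 1 was left out.

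Transforming growth factor alpha RNA was scarce. Counts of tgfa were 40, 61 and 39 reads in sham cords and 55, 28 and 36 reads in injured cords, or 1.98, 2.83 and 1.62 CPM and 1.93, 1.04 and 1.64 CPM. The lowest value was in injured replicate 2 and the highest in sham replicate 2, and the groups overlapped. With counting errors from 12.8% to 18.9% of each count, the fold difference of 0.717 had a 95% interval from 0.409 to 1.258 (log2FC -0.48, SE 0.333, edgeR adjusted p = 0.324, exact permutation p = 0.3). The coefficient of variation between libraries, 29.0% in sham and 29.5% in injured cords, exceeded the counting error. Neither tgfa nor egf passed the test without sham replicate 1 (adjusted p = 0.264 and 0.612, edgeR). For btc the count was 0 in all 6 libraries, which allows up to 3 reads, or from 0.0995 to 0.155 CPM before scaling, and it did not pass the filter on low counts. These limits, like the intervals on shares given next, cover counting error only.

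**Figure D2:**
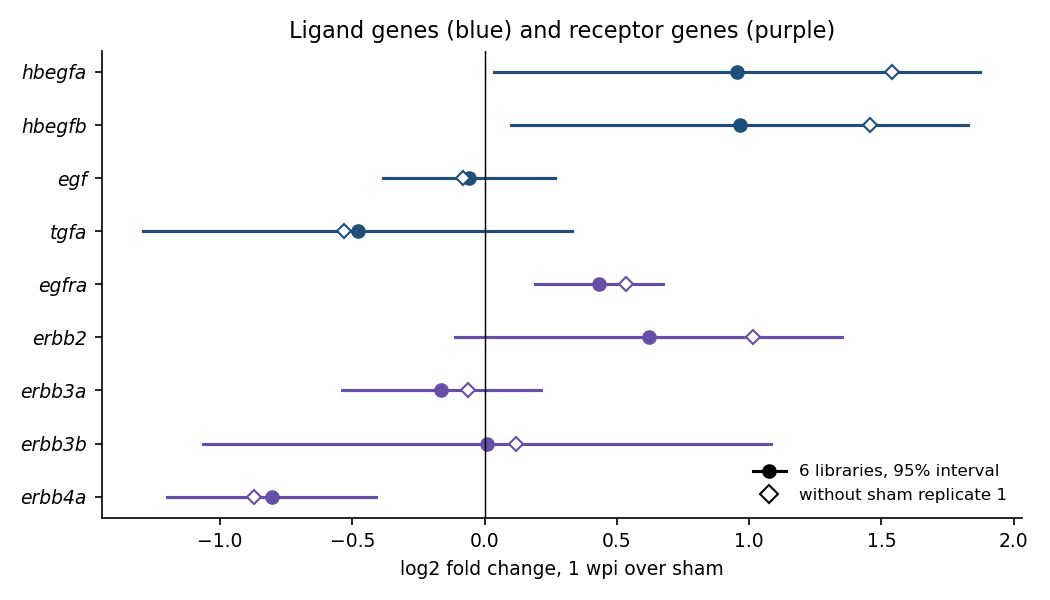
Log2FC values of the 4 tested ligand genes and of 5 receptor genes, 1 wpi over sham. Filled circles and lines are edgeR values of all 6 libraries with their 95% intervals, and open diamonds are values without sham replicate 1, which lie further from 0 for hbegfa (1.54) and hbegfb (1.46) and close to the circles for egf and tgfa.

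The make-up of the ligand reads was followed within each library, where scaling plays no part. Reads of the 5 genes numbered 2045, 1120 and 1056 in sham cords and 3323, 3258 and 2483 in injured cords. hbegfa took 69.6%, 57.7% and 59.8% of them in the sham libraries and 74.1%, 67.9% and 67.9% in the injured libraries. The share of egf was 7.73%, 17.1% and 17.0% in sham cords and 6.08%, 6.48% and 7.37% in injured cords. Sham replicate 1 thus had a make-up like that of the injured libraries, and its exact 95% binomial interval for egf (6.61% to 8.97%) lay apart from those of sham replicate 2 (14.98% to 19.5%) and replicate 3 (14.8% to 19.5%). The share of hbegfb varied less, from 19.4% to 20.7% in sham cords and from 18.1% to 24.7% in injured cords, and that of tgfa ran from 1.96% to 5.45% and from 0.859% to 1.66%. Because reads are not divided by gene length, these shares compare libraries and do not rank the ligands.

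**Figure D3:**
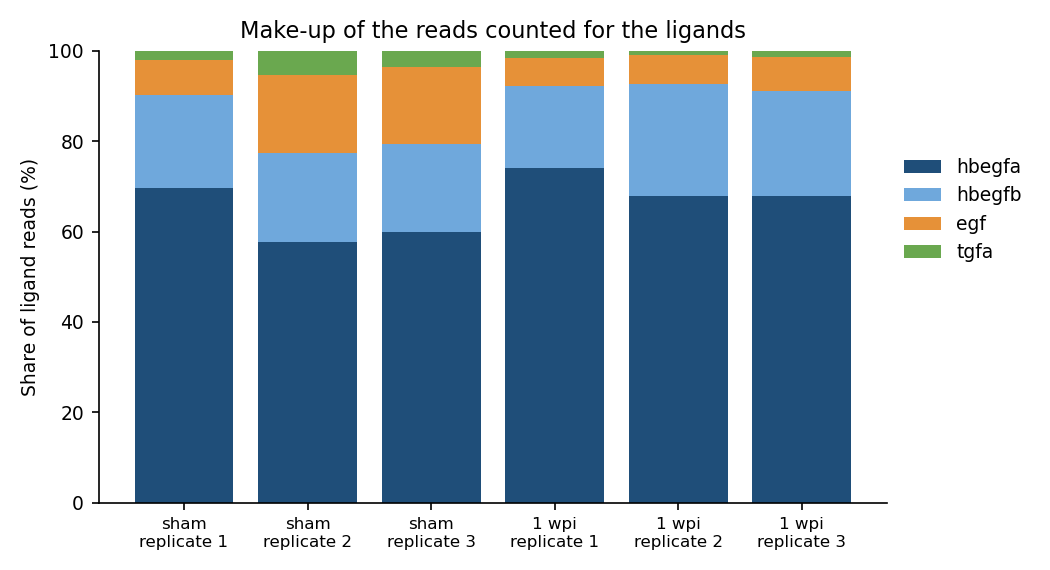
Share of the reads counted for the ligand genes that each gene took, in percent, in each library (btc, at 0, is not visible). The share of egf is 17.1% in sham replicate 2, 17.0% in sham replicate 3 and 6.08% to 7.73% in each remaining library.

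Whether the paralogs moved by different amounts was asked with their ratio within a library. Reads of hbegfa were 3.37, 2.92 and 3.08 times those of hbegfb in sham cords and 4.08, 2.75 and 2.92 times in injured cords. Injured replicate 1 had the highest ratio and the other 5 libraries lay close together. The log2 ratio was 0.04 higher at 1 wpi, with a 95% interval from -0.48 to 0.56 (exact permutation p = 0.9, 2-sided, adjusted p = 0.9 over 2 ratios), and its sign turned without sham replicate 2 or injured replicate 1. A difference between the paralogs was thus not found, within that interval. Reads of hbegfa against those of its receptor gene egfra stood at 0.590, 0.296 and 0.276 in sham cords and at 0.620, 0.558 and 0.549 in injured cords. That log2 ratio was 0.66 higher at 1 wpi (95% interval from -0.32 to 1.64, exact permutation p = 0.3, adjusted p = 0.6), and the groups overlapped through sham replicate 1. With that library left out the difference was 1.01.

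Genes with the pattern most like that of each paralog were then sought among 10933 genes. The measure was the root mean square difference between log2 CPM values over the 6 libraries, after each gene's own mean was subtracted. Closest to hbegfa was c1qc, which encodes a chain of complement C1q and is made by microglia and macrophages, at a distance of 0.0309. Its level was 22.6, 9.24 and 8.57 CPM in sham cords and 27.4, 27.2 and 24.4 CPM in injured cords. That sham replicate 1 is its high sham library follows from the choice by likeness to hbegfa. Next came sema3ga (0.0563), a secreted semaphorin, rai14 (0.0606), an actin-associated ankyrin repeat protein in mammals, tpte (0.0673), a voltage-sensing phosphatase, and lhfpl2a (0.0691), a membrane protein of the Lhfpl family. The distance of the median gene was 0.730. With sham replicate 1 left out these genes held ranks 3, 11, 12, 21 and 4.

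Closest to hbegfb was dicp3.1 (0.0458), an immunoglobulin-domain receptor of the kind bony fishes have. It measured 8.65, 4.27 and 3.62 CPM in sham cords and 8.38, 13.1 and 10.7 CPM in injured cords. Its high injured replicate 2 likewise follows from the choice by likeness to hbegfb. The next were csf2rb (0.0554), in mammals the shared chain of receptors for myeloid cytokines, gfpt2 (0.0657), the entry enzyme of the hexosamine pathway, ubald1b (0.0955) and cebpb (0.0984), a transcription factor of myeloid and inflammatory genes. Their ranks without sham replicate 1 were 2, 3, 1, 4 and 7. Neither paralog was among the 5 nearest genes of the other: hbegfb ranked 132 for hbegfa and hbegfa ranked 103 for hbegfb, of 10933 genes. The distance between the paralogs was 0.189, against 0.730 from hbegfa and 0.701 from hbegfb for the median gene. Their lists of 50 nearest genes shared 11 genes. The 10 genes named had log2FC values from 0.83 to 1.02, which follow from how they were chosen, and without sham replicate 1 from 1.34 to 1.599. The likeness is over 6 libraries that differ in injury and in cell content, and it is given as a description.

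**Figure D4:**
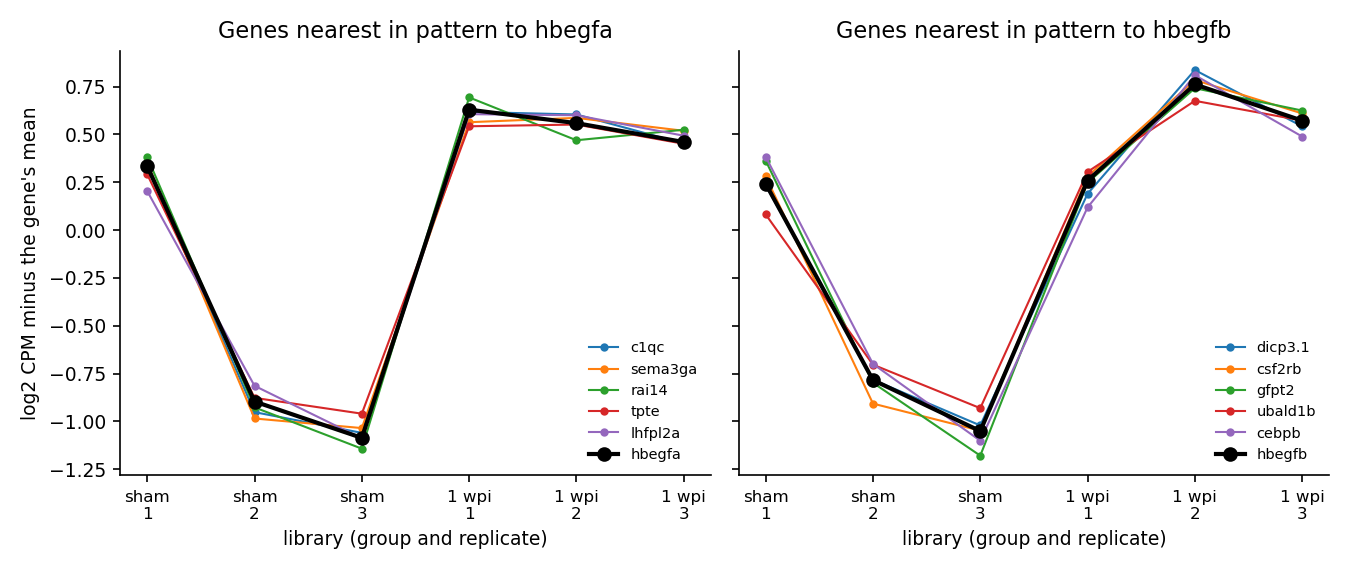
The 5 genes nearest in pattern to hbegfa (left) and to hbegfb (right) in each library, as log2 CPM minus the gene's mean over 6 libraries; lines join the values of a gene and carry no order of replicates. On the left the 3 injured values are nearly level and on the right injured replicate 1 is the lowest of the 3, while sham replicate 1 is the highest sham library in both. These shapes follow from how the genes were chosen.

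Levels of many cell type markers moved in the same libraries as the paralogs. Genes listed for microglia and macrophages (17 genes) summed to 6340, 3920 and 3780 CPM in sham cords and to 10974, 12182 and 11814 CPM in injured cords. The gene apoeb made up 61.9% of that level, with 3412, 1331 and 1442 CPM in sham and 7485, 8382 and 8297 CPM in injured cords. Of the 17 genes, 3 were called higher, beside 5.81% of all genes tested. Genes of mature neurons (16 genes) summed to 19254, 30422 and 34398 CPM and to 14737, 15357 and 14817 CPM. Sham replicate 1 lay beyond both other sham libraries on the injured side for 15 of the 17 microglia and macrophage genes and for 14 of the 16 neuron genes. This was not particular to these cell types. It held for 18 of 19 skeletal muscle and 6 of 7 erythrocyte genes, but for 5 of 16 skin and 2 of 16 oocyte genes. The share over all genes was not computed. Genes of neutrophils (9 genes) summed to 590, 261 and 215 CPM and to 781, 830 and 896 CPM, but the protease gene mmp9 made up 71.0% of that level, 0 of the 8 tested were called (1 higher at an unadjusted p under 0.05, 1 by DESeq2), and the lysozyme gene lyz went the other way, at 71.8, 63.6 and 42.7 CPM in sham and 51.0, 24.0 and 28.7 CPM in injured cords. The ERG genes (10 genes) were mixed. Their sum, of which gfap made up 50.5%, was 14160, 19011 and 16968 CPM in sham and 20285, 20973 and 21141 CPM in injured cords, lowest in sham replicate 1. Yet 3 of the 10 were called higher, beside 5.81% of all genes tested. In 6 of the 10 sham replicate 1 lay on the injured side of the other sham libraries, as for foxj1a, a regulator of motile cilia, with 118, 78.4 and 85.4 CPM in sham and 205, 215 and 194 CPM in injured cords. Genes of skeletal muscle (19 genes) summed to 23548, 10115 and 7338 CPM in sham and to 47881, 14234 and 18825 CPM in injured cords. For these genes the sum of sham replicate 1 was above those of injured replicates 2 and 3. No gene of the 5 lists whose levels are given in this paragraph was at 0 in every library. The part of cell content in the levels of hbegfa and hbegfb was not tested.

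Of the 5 receptor genes tested, egfra was called higher and erbb4a lower at 1 wpi, beside 5.81% and 4.83% of all genes tested. Each was short of the edgeR call when any library other than sham replicate 1 was left out (adjusted p from 0.121 to 0.177, edgeR). This was so for every gene, since edgeR called 0 of all genes in these fits. DESeq2 kept the call of erbb4a in each of these fits (adjusted p from 0.0127 to 0.0375). It lost that of egfra only without injured replicate 2 (adjusted p from 0.0211 to 0.0510 over these fits). egfra measured 119, 101.4 and 95.2 CPM in sham and 139, 147 and 140 CPM in injured cords (adjusted p = 0.0466, 0.0533 with upper-quartile and 0.0773 with total-count scaling, edgeR). The gene erbb4a measured 7.16, 7.39 and 9.11 CPM and 4.66, 4.01 and 4.87 CPM (adjusted p = 0.0421, edgeR). For erbb2 the values were 21.1, 10.7 and 10.99 CPM and 20.8, 18.7 and 26.3 CPM, with sham replicate 1 among the injured libraries, and its log2FC of 0.62 (adjusted p = 0.181) became 1.01 (adjusted p = 0.00266, edgeR) without that library. erbb3a and erbb3b passed in neither fit, and erbb4b was not analysed here. Levels of erbb3a were 7.06, 5.76 and 5.87 CPM in sham and 6.13, 5.13 and 5.42 CPM in injured cords. Reads of erbb3b were few, at 12, 5 and 17 in sham and 15, 14 and 11 in injured cords.

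Genes of the pathway beyond the grouped ligands were taken from lists written from general knowledge. The receptor genes above, areg, ereg and epgn are counted in these lists. Of 116 listed genes 85 were found and 82 tested, of which 9 were called higher (egfra included), 3 lower (erbb4a included) and 70 neither. These are 11.0% and 3.66% of the tested pathway genes, beside 5.81% and 4.83% of all genes tested. The same shares of all genes stand beside each edgeR count with 6 libraries given for the lists below. The median log2FC was 0.16, against -0.03 over all genes. In the fit without sham replicate 1, 37 pathway genes (45.1% of those tested) were higher and 20 (24.4%) lower, beside 29.0% and 28.2% of all genes, and these shares of all genes stand beside each count without that library given for the lists below. Apart from cd9b, every gene named from the lists below passed in that fit, in the same direction. Whichever other library was dropped, edgeR called 0 pathway genes and 0 genes in all, with 3026 to 3440 of all genes at an unadjusted p under 0.05. DESeq2, with those libraries left out, called 8 to 13 pathway genes higher and 3 to 6 lower, beside 859 to 1068 and 786 to 922 of all genes. Further counts for the lists and neighbours below stand beside these shares of all genes with 6 libraries. At an unadjusted edgeR p under 0.05 it was 38.2% in either direction, and by DESeq2 14.8% higher and 14.8% lower. Scaled by total count alone, edgeR called 3 higher and 5 lower: egfra, adam10b, itga3b, hrasa, etv4 and jun no longer passed (adjusted p from 0.0513 to 0.0788), and akt3a and spred3 did (adjusted p = 0.0493 and 0.0444).

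Products of the genes listed for ectodomain shedding act on the ligand precursors or on the proteases that cut them. Of 9 tested, 2 rose and 0 were lower in edgeR (6 were higher and 0 lower at an unadjusted p under 0.05, and likewise by DESeq2), with a median log2FC of 0.55. furinb, a proprotein convertase of the kind that activates such proteases, measured 49.7, 39.5 and 38.8 CPM in sham cords and 66.9, 68.0 and 72.1 CPM in injured cords (log2FC 0.69, SE 0.113, edgeR adjusted p = 0.0345). adam10b, a protease that sheds Egf and betacellulin in mammals, measured 55.9, 44.7 and 54.6 CPM and 70.0, 73.6 and 78.8 CPM (log2FC 0.52, SE 0.106, edgeR adjusted p = 0.0424). In both, all injured libraries lay above all sham libraries, as for 6 of the 9 genes of the list and 22.9% of all genes tested. adam10a, the paralog of adam10b, had a log2FC of 0.86 (adjusted p = 0.0680) and adam17a, which in mammals sheds transforming growth factor alpha and Hb-egf, one of 0.24 (adjusted p = 0.0684). Without sham replicate 1, 8 of the 9 were higher and 0 were lower, against 29.0% and 28.2% of all genes, and adam10a was at 1.21.

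Partners of membrane-anchored Hb-egf are known from mammals, where the precursor sits in a complex with the tetraspanin CD9 and the integrin α3β1. Of 8 tested partner genes, 2 rose and 0 were called lower (2 were lower at an unadjusted p under 0.05, and 2 by DESeq2). The genes that rose encode integrin chains. The CD9 genes cd9a and cd9b did not pass, with log2FC values of -0.10 and 0.0011 (adjusted p = 0.697 and 0.997, edgeR). Without sham replicate 1 they were at -0.27 and -0.16 (adjusted p = 0.00294 and 0.234, edgeR). itgb1a measured 79.8, 55.4 and 58.8 CPM in sham and 113, 103 and 109 CPM in injured cords (log2FC 0.74, SE 0.148, edgeR adjusted p = 0.0412). itga3b measured 34.1, 28.7 and 27.1 CPM and 43.6, 44.0 and 40.1 CPM (log2FC 0.51, SE 0.111, edgeR adjusted p = 0.0447). The groups of both genes were apart. Of the 8 tested, 3 were apart upward and 2 downward, beside 22.9% and 21.8% of all genes. The tetraspanin gene cd81b had a log2FC of -0.69 (adjusted p = 0.0642) and bag1, whose mammalian product binds the cytoplasmic tail of Hb-egf, one of -0.36 (adjusted p = 0.0837). The median of the list was -0.05, and without sham replicate 1 it had 2 genes higher and 4 lower.

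Downstream of the receptors, 26 genes of adaptors and kinases were tested, of which 1 rose and 1 fell, with a median log2FC of -0.05. hrasa, a Ras GTPase gene, measured 42.8, 44.5 and 45.7 CPM in sham and 54.5, 56.5 and 55.7 CPM in injured cords, a rise of 0.32 on the log2 scale (edgeR adjusted p = 0.0402). braf, which encodes a Raf kinase, fell from 49.8, 62.7 and 71.5 CPM to 36.2, 38.3 and 38.4 CPM (log2FC -0.70, edgeR adjusted p = 0.0402). The groups of both were apart. Of the 26 tested, 6 were apart upward and 6 downward, beside 22.9% and 21.8% of all genes. By adjusted p, akt3a, an Akt kinase gene, came next with a log2FC of -0.51 (adjusted p = 0.0509, edgeR). ptpn11a, which encodes the phosphatase Shp2, had a log2FC of 0.24 (adjusted p = 0.0698, edgeR). With sham replicate 1 left out, 5 of the list were higher and 10 lower. RNA levels of kinases say nothing of their activity.

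Feedback inhibitors were listed here as genes whose products damp Egf receptor or Erk signaling, and only some of them are known as genes that Erk induces. Of 14 tested, 0 were called higher (4 at an unadjusted p under 0.05, 3 by DESeq2) and 1 lower (4 and 4), with a median of 0.12. The Sprouty gene spry1 fell from 14.97, 18.8 and 18.7 CPM to 11.95, 11.97 and 12.3 CPM (log2FC -0.53, SE 0.1195, edgeR adjusted p = 0.0463). Its relatives spred3 and spry2 had log2FC values of -0.73 and -0.77 (adjusted p = 0.0525 and 0.0680), and lrig3, of a family of receptor regulators, one of 0.48 (adjusted p = 0.0707). The list did not fall as a whole, since 8 of the 14 genes had a positive log2FC. The largest values were 1.18 for socs3b and 1.07 for dusp5 (adjusted p = 0.0934 and 0.101, edgeR), which became 1.81 and 1.65 without sham replicate 1. In the fit without sham replicate 1, 5 were higher and 5 lower. The call of spry1 and the miss of spred3 lay near the threshold, with adjusted p from 0.0416 to 0.0526 for spry1 and from 0.0444 to 0.0575 for spred3 over scalings and filters.

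Transcription factors downstream of Erk had 3 of 20 tested genes higher and 0 lower (9 higher and 0 lower at an unadjusted p under 0.05, 7 and 0 by DESeq2), with a median log2FC of 0.44. The Ets factor gene etv1 measured 8.74, 7.62 and 7.08 CPM in sham and 16.3, 16.9 and 18.7 CPM in injured cords (log2FC 1.15, SE 0.124, edgeR adjusted p = 0.0281). Sham replicate 1 lay with the other sham libraries here, unlike for the hb-egf paralogs. Its relative etv4 rose by 0.31 (adjusted p = 0.0463) and jun, an AP-1 subunit gene, by 0.77 (adjusted p = 0.0485, edgeR, 0.0526 with upper-quartile scaling and 0.0508 with no filter). elk3, another Ets factor gene, had a log2FC of 0.80 (adjusted p = 0.0567). With sham replicate 1 left out, 15 of the 20 were higher and 0 lower, in a fit that called 29.0% of all genes higher, and jun was at 1.0004.

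**Figure D5:**
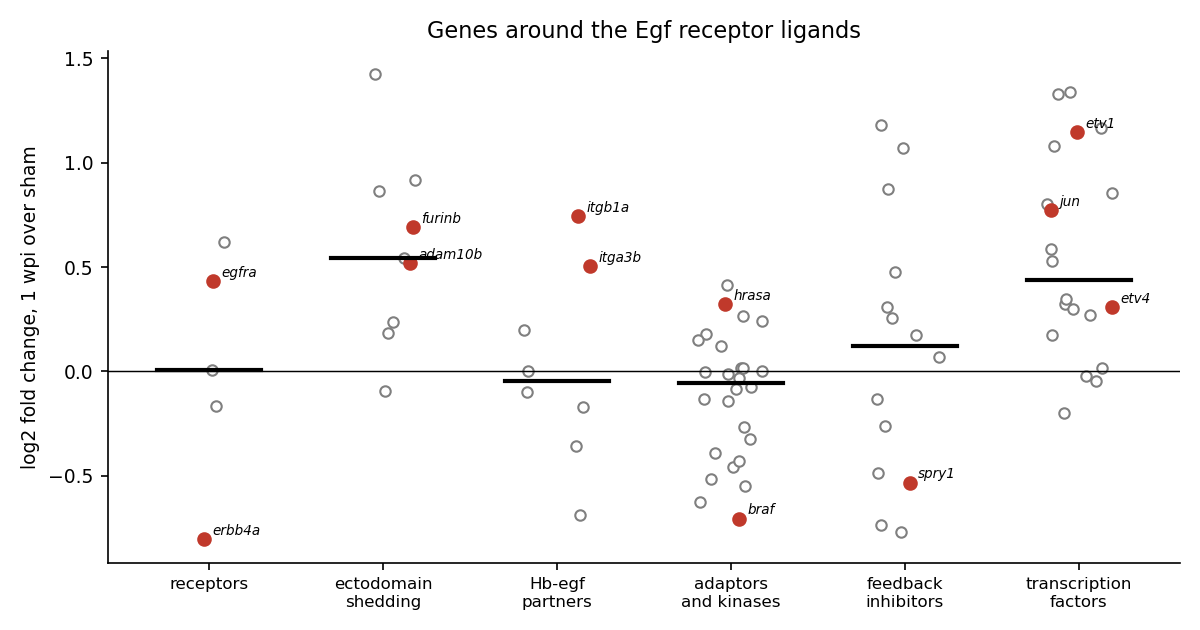
Log2 fold change of each tested pathway gene, 1 wpi over sham, by list. Filled red circles are genes past the edgeR threshold (9 higher, 3 lower), open circles are genes that did not pass, and bars are the medians of the lists, from -0.05 for adaptors and kinases to 0.55 for ectodomain shedding; horizontal scatter within a list has no meaning.

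Protein-coding genes that lie beside the paralogs on the chromosome were examined for a shared shift, with neighbours and order taken from RefSeq (GRCz12tu) and the rule set after the values had been seen. Of the 3 genes on each side of hbegfa, 4 were tested and 0 passed, with log2FC values from -0.56 to 0.56 (1 lower at an unadjusted p under 0.05, and 1 by DESeq2). Of those around hbegfb, 5 were tested and 0 passed, with log2FC values from -0.63 to 0.31 (1 lower at an unadjusted p under 0.05, and 1 by DESeq2). Each paralog lies near a gene of the hnRNP H family of RNA-binding proteins. hnrnph1, near hbegfa, measured 20.6, 28.9 and 28.9 CPM in sham and 22.5, 21.4 and 19.5 CPM in injured cords, and hnrnph1l, next to hbegfb, measured 104, 91.2 and 93.4 CPM and 98.6, 93.1 and 96.4 CPM. In neither were the injured libraries above the sham libraries. Without sham replicate 1, 3 neighbours of hbegfa and 2 of hbegfb passed the threshold, in a fit that called 57.2% of all genes.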

How the data were processed

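Total RNA of 6 spinal cord samples was sequenced as 50-base single-end reads. The deposited files hold raw counts per gene symbol, which the authors made by aligning to danRer10 with TopHat2, removing low mapping qualities (SAMtools 1.3.1, limit 30) and running HTSeq 0.6.0. Trim Galore is also named in the submitters' processing notes. Which annotation and strand setting were used is not given in the sources used here. Thus a gene and an overlapping or antisense partner could share reads, and near-identical paralogs may be undercounted. Reads without a gene, 41.2% to 51.3% of each file, and ambiguous reads, 0.509% to 0.611%, were left out of library sizes. Reads without a gene made up 43.8%, 50.9% and 51.3% of the sham files and 41.2%, 42.1% and 42.0% of the injured files. In this share, too, sham replicate 1 lay nearer to the injured libraries than to the other sham libraries. The part of this difference in the gene levels was not tested.

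Genes were filtered with filterByExpr (count 10, total 15), scaled by TMM and fitted in edgeR 4.0.16 (R 4.3.3) with a quasi-likelihood model of injury alone, which gave the adjusted p-values. The edgeR test was checked on simulated data. No simulated library was set apart as sham replicate 1 was, so that check says nothing on calls that rest on that library. Standard errors follow from the fold change and the F statistic. The study's own tool, DESeq2 (here 1.42.0), served as an alternative, beside limma 3.58.1 (voom with sample weights), other scalings and filters, a replicate block and each library left out. Exact tests used scipy 1.17.1, share intervals are exact binomial (95%), intervals of ratio differences come from the pooled spread of the libraries, and log2 CPM had a prior count of 2. Replicates of each group differed by more than sampling noise (chi-square over degrees of freedom 11.8 to 167).

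The members and lists were chosen with earlier results of these data known. Named genes were all members and receptors, every called gene of the other pathway lists and otherwise up to 4 per list by adjusted p, and the 5 genes nearest in pattern to each hb-egf paralog with a mean of at least 1 CPM and an approved-style symbol. The pathway genes cd9a, cd9b, socs3b and dusp5 were named outside this rule. Chromosome neighbours were added after the data had been seen. No sequences were used here, and 1 gene of the pathway lists is not reported here.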

Additional observations from a re-analysis of the deposited data

How the results depend on the processing

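For hbegfa and hbegfb, scaling and filters left the edgeR call as it was (adjusted p from 0.0985 to 0.150). DESeq2 called them, with log2 fold changes of 0.95 and 0.96, limma-voom with sample weights gave 1.46 and 1.43 (adjusted p = 0.000144 and 0.000883), and the sample weight of sham replicate 1 was 0.0949, the lowest of all. Over libraries left out in edgeR, hbegfa ranged from 0.71 to 1.54 and hbegfb from 0.73 to 1.46 (1.54 and 1.46 by DESeq2 without sham replicate 1), egf from -0.11 to 0.0199 and erbb3b from -0.33 to 0.33. By DESeq2, egf was at 0.0193 and 0.0035 and erbb3b at -0.34 and -0.00269 without sham replicate 2 and without injured replicate 1, and with total-count scaling, added after the data had been seen, erbb3b was at -0.0344. The log2 ratio of hbegfa to hbegfb ranged from -0.14 to 0.15 and that of hbegfa to egfra from 0.46 to 1.01. Pathway genes called higher, 9 in edgeR with all libraries, numbered 3 with total-count scaling, 22 with DESeq2 and 37 with limma-voom, and from 0 to 37 over libraries left out. Those called lower, 3 in edgeR with all libraries, numbered 5 with 10 counts in every library, 5 with total-count scaling, 12 with DESeq2 and 19 with limma-voom, and from 0 to 20 over libraries left out (by DESeq2 18 without sham replicate 1, 5 without sham replicate 3 and 6 without injured replicate 3). Over all genes, 744 higher and 618 lower became 456 and 1006 with total-count scaling, 1878 and 1888 with DESeq2 and 3740 and 3805 with limma-voom, and from 0 to 3750 and from 0 to 3647 over libraries left out (3628 and 3405 by DESeq2 without sham replicate 1). The alternatives for btc could not be fitted, since its count was 0. The cause of these differences was not tested.

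Same-numbered libraries correlated at -0.16, -0.03 and 0.07 in their deviations from the group means, and differently numbered ones at -0.21 to 0.18. With 3 libraries per group and sham replicate 1 apart from the rest, these values cannot decide whether replicate numbers pair the samples. With the replicate block, hbegfa had a log2 fold change of 1.098 and hbegfb one of 1.07 (adjusted p = 0.0986 and 0.136, edgeR). The block called 0 pathway genes higher, 0 lower, and 0 and 0 over all genes, with 4322 genes at an unadjusted p under 0.05. Pairing by number could not move the ratio differences of 0.04 and 0.66, since a mean of paired differences equals the difference of the group means. Neighbour counts were set after the data had been seen, and moved between 0 and 3 of 4 for hbegfa and between 0 and 2 of 5 for hbegfb. Among the ligand genes, counts were lowest for tgfa and btc, at 28 to 61 reads and 0 reads per library. The receptor gene erbb3b had 5 to 17 reads per library.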
